A study of Ciona robusta with 3 samples.

Results

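Among the cells of the time series library that carried no complete sample barcode pair, 520 had at least 5 UMIs (unique molecular identifiers, each counted as 1 transcript molecule) summed over the genes KY.Chr3.262, KY.Chr7.533 and KY.Chr10.630. They are called gated cells here, and these 3 genes are called the gate genes. The gated cells were 20.7% of the 2517 cells kept (95% exact Clopper-Pearson interval 19.1 to 22.3) and 50.6% of the 1027 cells with no complete pair (47.5 to 53.7). These intervals cover counting error only. Another 1490 cells carried at least 1 complete pair and are called barcoded cells, and the last 507 cells are called other unbarcoded cells. Because the gate genes chose the cells, their levels are given as a description and the 3 genes are left out of every gene list.

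The study followed cells of the B7.5 lineage in embryos of the ascidian Ciona robusta, raised from the pooled eggs of several animals and electroporated with Mesp>GFP reporters, each batch with its own pair of sample barcodes. In the time series library 10 batches, from 5 to 14 hours post-fertilization (hpf), were dissociated, fixed in methanol, pooled, rehydrated, sorted for the reporter by FACS and sequenced as 1 droplet library. In both CRISPR libraries, labelled repeats 1 and 2, embryos of 12 hpf carrying lineage-driven CRISPR against Foxf, Gata4/5/6 or Foxtun4, or a control, were pooled in the same way. The Mesp driver is active in the B7.5 lineage, so a cell outside it should lack the barcode and be removed by the sort. No complete pair means that the batch, age or CRISPR condition of a gated cell is not known.

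The B7.5 lineage founds the cardiopharyngeal progenitors, which later form heart and pharyngeal muscle, and the anterior tail muscle. The ascidian epidermis is a single-layered ectodermal sheet that covers the embryo and secretes extracellular material, including the first tunic, whose organic matter is rich in polysaccharide and protein. Epi1 is an epidermal marker of Ciona that the study also used, and the cells' genes are described below beside markers of epidermis and of 8 other cell classes. Gene names other than the KY identifiers are those of the most similar vertebrate genes in the study's own gene tables. Most of the leading genes have none in the tables read. A gene without a vertebrate name here is one unnamed there, and vertebrate relatives were not searched for.

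KY.Chr7.533 supplied most of the gate. It made up 79.5% of the gate UMIs of the gated cells, against 14.113% for KY.Chr10.630 and 6.41% for KY.Chr3.262. A UMI of KY.Chr7.533 was found in 489 gated cells (94.0%), one of KY.Chr10.630 in 459 (88.3%) and one of KY.Chr3.262 in 118 (22.7%). The gene that gives the set its name was thus absent from 402 of the 520 cells. Of the gated cells 78 held UMIs of 1 gate gene, 338 of 2 and 104 of all 3. The median gated cell had 74 gate UMIs and the highest had 2004.

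**Figure D1:**
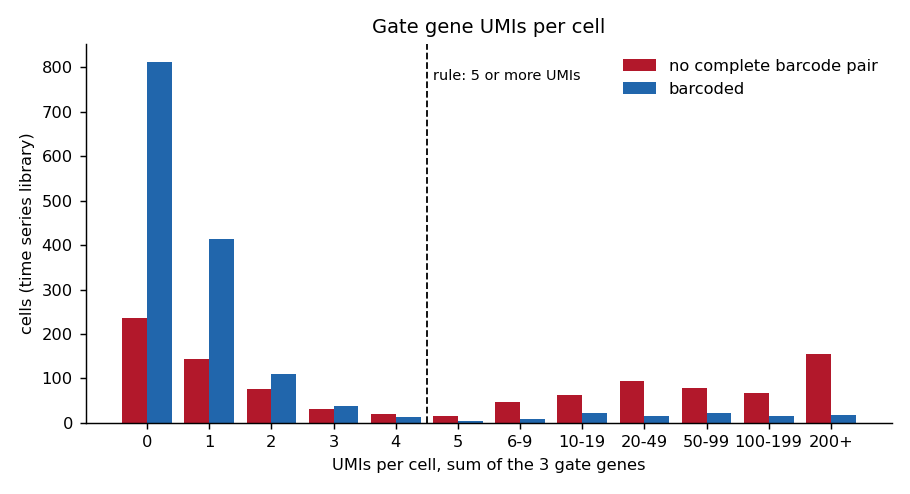
Number of time series cells (vertical axis) by UMIs per cell summed over the 3 gate genes (horizontal axis), for cells with no complete barcode pair (red) and barcoded cells (blue); the dashed line marks the rule. The 154 unbarcoded cells with 200 or more gate UMIs face 18 barcoded cells, while 812 barcoded and 236 unbarcoded cells had none. The bins widen to the right, so bar heights do not show the number of cells per UMI.

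The threshold did not fall in a gap. By single counts, 32 of the unbarcoded cells had 3 gate UMIs, 19 had 4 and 16 had 5. In all 51 had 3 or 4 and 26 had 5 or 6, beside 394 in the far wider range from 20 to 2004. Just inside the rule, the 26 cells had 10382 CPM (a gene's UMIs scaled to a summed total of 1000000) of Epi1. Just outside it, the 51 cells had 5249 CPM of Epi1, and the 236 unbarcoded cells without a gate UMI had 2453 CPM. Cells just below the rule thus lay between the gated cells and the unbarcoded cells with no gate UMI in this gene.

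Gated cells were as deep as barcoded cells in the time series, with a median of 14516 gene UMIs against 14263, and the other unbarcoded cells had 8761. They held 8736250 UMIs in all. Sample barcodes were nearly absent from them: the median gated cell had 1 barcode UMI, the highest had 7 and 117 cells (22.5%) had none, against a median of 403.5 in barcoded cells. The few barcode UMIs in gated cells were spread over the pairs much as those of the whole library. The pair assigned to 10 hpf took 30% of them and 29.9% in the library, the pair of 7 hpf took 26.6% and 27.4%, and the pair of 8 hpf took 15.6% and 20.01%. The pair-to-hour key was read from a colour key in the study's appendix. A UMI of that kind therefore gave no age for a gated cell.

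A further 105 barcoded cells also reached 5 gate UMIs and are not gated cells. Their median was 4 sample barcode UMIs and 78.1% of them had under 10, against a median of 454 and 8.23% in the other 1385 barcoded cells. These 105 cells carried 8998 CPM of Epi1 where they had 20 or more gate UMIs (71 cells). Since they raise the level of the gated cells' genes in the barcoded sum, ratios are given against all barcoded cells, as the comparison was set, and those against the 1385 barcoded cells under 5 gate UMIs are given for whole groups of genes and for a few single genes. The part that these cells, or doublets, play in any ratio was not tested.

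Leading genes were taken from the time series, which is 1 library, so each ratio of CPM is a description with a 95% interval for counting error only. Of 10191 genes with at least 50 UMIs over both sums, 1056 (10.4%) were at least 4-fold higher in gated than in barcoded cells and 1241 (12.2%) were at least 4-fold lower. Scaling the sums by TMM, which shifted log2 ratios by 0.28, gave 1210 higher and 915 lower. Over all genes compared the median log2 ratio was -0.50 before that scaling. The 15 genes with the highest lower bound of the ratio were 13.7-fold to 18.4-fold higher, and most of them have no vertebrate name.

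Col6a3 (KY.Chr13.461), a chain of collagen VI, was at 8441 CPM in gated cells, 530 in barcoded cells, 108 in barcoded cells under 5 gate UMIs and 1150 in other unbarcoded cells. Its ratio to barcoded cells was 15.9 (interval 15.6 to 16.2). This matrix gene was found in nearly every gated cell, since 97.5% held a UMI of it.

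Vim (KY.Chr3.1290), the intermediate filament protein vimentin in vertebrates, was at 3768 CPM in gated cells, 265 in barcoded cells, 16.6 in barcoded cells under 5 gate UMIs and 97.2 in other unbarcoded cells. Among the named genes it was one of those that separated the gated from the other unbarcoded cells too. After every cell was thinned to 3000 UMIs, 83.0% of gated cells kept a UMI of Vim, against 3.86% of barcoded cells under 5 gate UMIs and 16.9% of other unbarcoded cells. Thinning left out 13, 39 and 57 shallower cells of these classes. Unthinned, 91.7% of gated, 22.3% of all barcoded and 34.9% of other unbarcoded cells had a UMI of Vim.

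In this group 12 genes have no vertebrate name. KY.Chr1.1754 was at 305 CPM in gated cells, 17.0 in barcoded cells and 4.31 in other unbarcoded cells, and was found in 53.1% of gated cells. KY.Chr9.787 was at 846, 59.1 and 18.4 CPM, found in 85.8% of gated cells. KY.Chr4.1110 was at 12381, 902 and 3033 CPM, found in 99.04%. These 3 show the range of the group: a gene of some gated cells, a gene of most of them that the other unbarcoded cells lacked, and a gene of nearly all that the other unbarcoded cells shared. The remaining 9 genes, KY.Chr3.1639, KY.Chr11.166, KY.Chr11.1242, KY.Chr13.373, KY.Chr2.815, KY.Chr3.570, KY.Chr8.1131, KY.Chr7.103 and KY.Chr7.1256, were at 97.4 to 1238 CPM and found in 51.7% to 93.7% of gated cells.

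**Figure D2:**
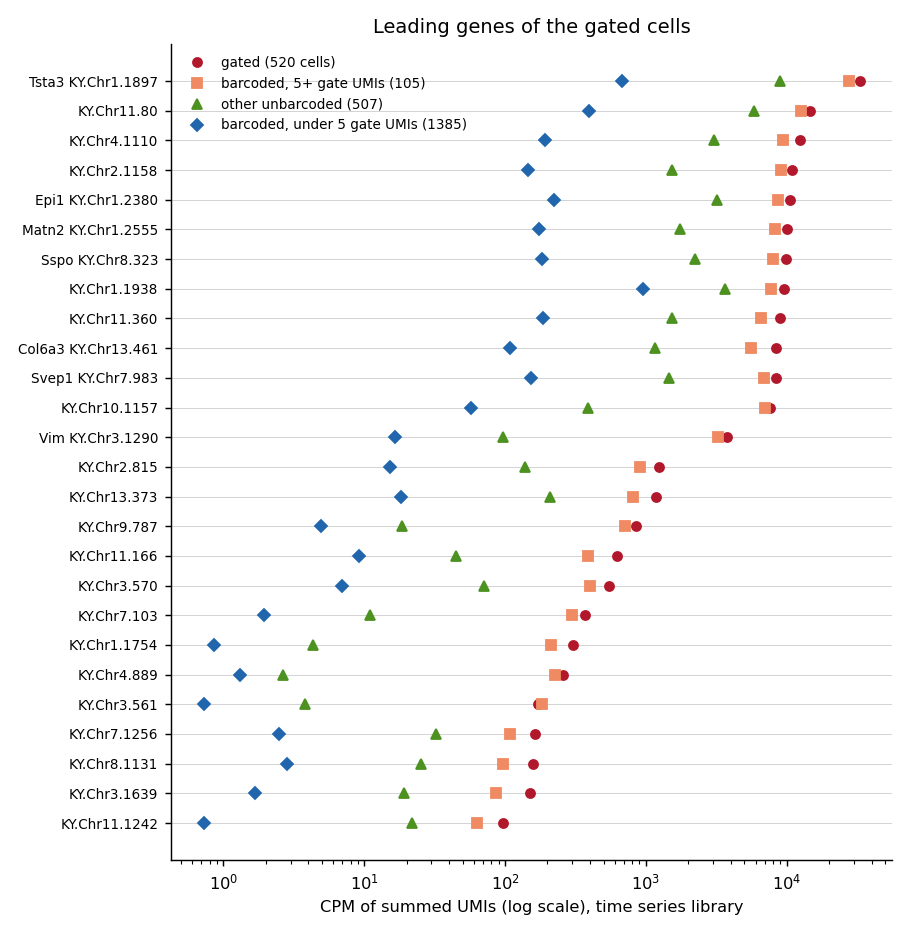
CPM of summed UMIs (horizontal axis, log scale) of the leading genes (rows) in 4 classes of time series cells: gated (red circles), barcoded with 5 or more gate UMIs (orange squares), other unbarcoded (green triangles) and barcoded under 5 gate UMIs (blue diamonds). Gated cells are highest in every row but that of KY.Chr3.561, where barcoded cells with 5 or more gate UMIs lie slightly above the 173 CPM of gated cells, and Tsta3 is at 32886 CPM in gated cells.

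Of the genes at least 4-fold higher by the lower bound and not yet named, 10 had the highest CPM in gated cells. Epi1 (KY.Chr1.2380) was at 10569 CPM in gated cells, 867 in barcoded cells, 221 in barcoded cells under 5 gate UMIs and 3169 in other unbarcoded cells, 12.2-fold higher than in barcoded cells (12.01 to 12.38). Per cell, Epi1 ran from 0 over a median of 105.4 to 277 UMIs per 10000 in gated cells, and from 0 over a median of 0 to 187 in barcoded cells under 5 gate UMIs. The ranges overlapped, but Epi1 was found in 99.4% of thinned gated cells, in 11.66% of thinned barcoded cells under 5 gate UMIs and in 53.3% of thinned other unbarcoded cells.

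Tsta3 (KY.Chr1.1897), the enzyme that completes GDP-fucose in vertebrates, was at 32886 CPM in gated, 2739 in barcoded and 8956 in other unbarcoded cells. Matn2 (KY.Chr1.2555), a matrilin of the extracellular matrix, was at 10046, 798 and 1740 CPM. Svep1 (KY.Chr7.983), a large extracellular adhesion protein, was at 8346, 667 and 1465 CPM. All 3 were lower in the other unbarcoded cells than in gated cells yet above the barcoded cells.

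Sspo (KY.Chr8.323), a secreted thrombospondin-type protein, was at 9797 CPM against 786 in barcoded cells. The 5 unnamed genes KY.Chr11.80, KY.Chr2.1158, KY.Chr1.1938, KY.Chr11.360 and KY.Chr10.1157 were at 7637 to 14689 CPM. KY.Chr1.1938 had the lowest ratio of these 10 genes, at 6.50, and was found in 98.6% of barcoded cells. In all 13 settings tried in the time series, the 25 genes of both groups stayed at least 4-fold higher, between 6.09 and 352. Against barcoded cells under 5 gate UMIs their ratios were 10.02 to 352, and all 25 grew by more than 1.5 times. The same held for 41 of the 59 genes that were at least 4-fold higher in the name lists described further on, where ratios of 4.01 to 15.9 to all barcoded cells stood beside 4.57 to 149.6 to those under 5 gate UMIs.

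The CRISPR libraries were not used to choose any gene, and the same gate was applied to them. It took 22 of 231 cells (9.52%; 6.07 to 14.06) in repeat 1 and 94 of 638 (14.7%; 12.1 to 17.7) in repeat 2, or 35.5% and 54.3% of the cells with no complete pair. KY.Chr3.262 was again found in few of them, 27.3% and 25.5%, and KY.Chr7.533 in 90.9% and 96.8%. UMIs were summed for gated and barcoded cells of each repeat and the 4 sums were compared with edgeR's quasi-likelihood test, with p-values adjusted by Benjamini-Hochberg over the 9124 genes tested. At an adjusted p under 0.05 and a log2 fold change beyond 1, 2048 genes (22.4%) were called higher in gated cells and 1587 (17.4%) lower. This fit had no term for the repeat. Nothing in the labels says that the repeats came from separate cultures, so these p-values measure only the spread between these libraries. The paper describes its 4 CRISPR samples as pooled into 1 library, and does not say how both repeats relate to it.

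All 15 leading genes and all 10 genes of the second group were called higher in the CRISPR libraries, with log2 fold changes of 4.19 to 6.13 and 3.142 to 5.85. Epi1 was at 13304 and 10513 CPM in the gated cells of repeats 1 and 2 and at 190.0 and 245 in barcoded cells, a log2 fold change of 5.68 ± 0.39 (SE, n = 2 repeats; edgeR adjusted p = 0.00015). Vim was at 2584 and 2908 CPM against 81.3 and 35.9 (5.48 ± 0.48; adjusted p = 0.00039). With the repeat as a block the edgeR adjusted p was 0.0012 for Epi1 and 0.0015 for Vim. In each of these genes both gated sums lay far above both barcoded sums.

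A single gated cell of repeat 1 held 330966 UMIs, 47.5% of the gated UMIs there, and the next had 53303. Without the largest gated cell of each repeat, 1965 genes were called higher and 1580 lower. Gated cells of the CRISPR libraries were shallower than barcoded cells, with medians of 12501 and 10279 gene UMIs against 21567 and 25544. Repeats 1 and 2 shared 7 cell barcodes, of which 4 belonged to gated cells in repeat 1 and 1 in repeat 2, and neither shared a cell barcode with the time series. Of the 916 tested genes that were at least 4-fold higher in the time series, 888 were called higher here (96.9%; 22.4% of all genes tested), and of 1030 that were at least 4-fold lower, 771 were called lower (74.9%; 17.4% of all).

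**Figure D3:**
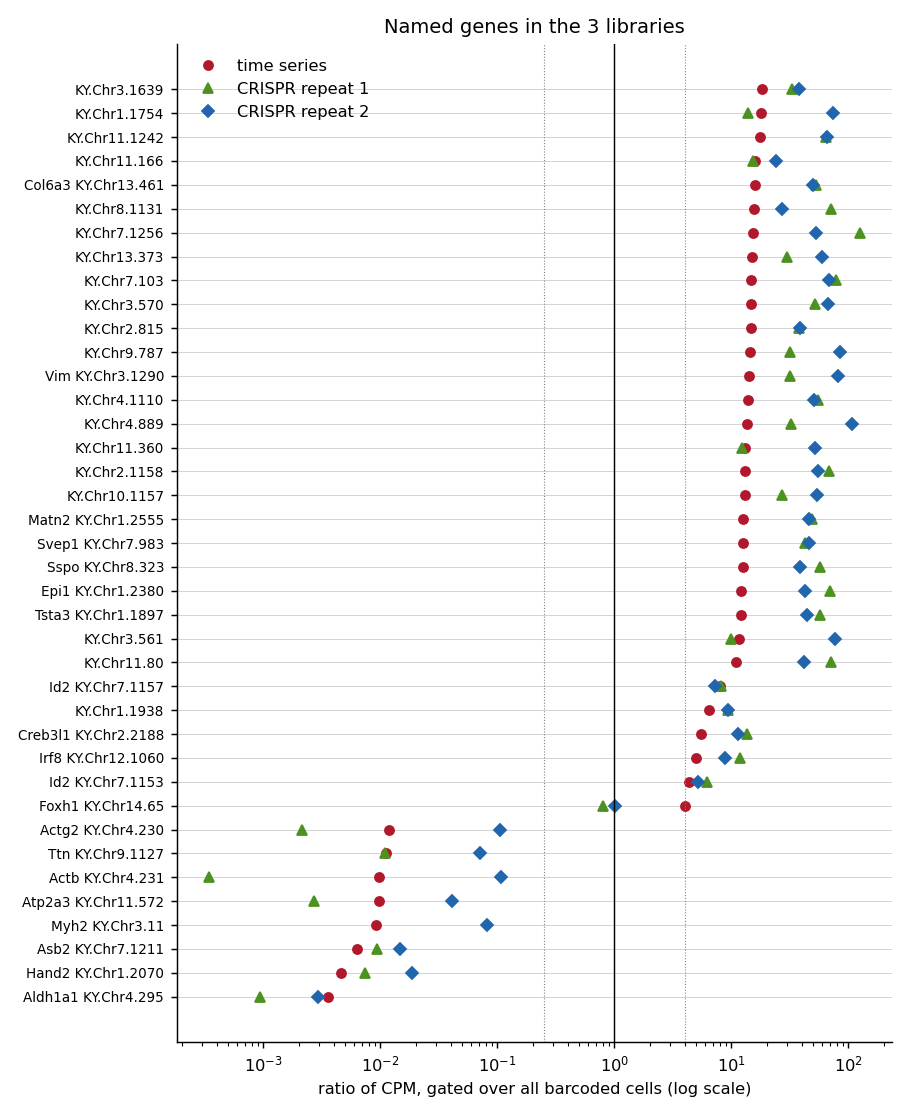
Ratio of CPM, gated over all barcoded cells (horizontal axis, log scale), of the genes named by rank (rows) in the time series (red circles), CRISPR repeat 1 (green triangles) and CRISPR repeat 2 (blue diamonds); the solid line marks a ratio of 1 and dotted lines 4-fold. A ratio of 0, as for Myh2 in repeat 1, has no point, and Foxh1 is the gene whose CRISPR ratios, 0.805 and 1.01, left the higher side.

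The genes that gated cells lacked most were genes of muscle and of the cardiopharyngeal lineage. Hand-r (Hand2, KY.Chr1.2070), a bHLH regulator of cardiopharyngeal progenitors, was at 2.75 CPM in gated cells and 601 in barcoded cells, a ratio of 0.0046. Aldh1a1 (KY.Chr4.295), whose vertebrate relative makes retinoic acid, was at 5.72 against 1616 CPM, and Asb2 (KY.Chr7.1211), a muscle ubiquitin ligase component in vertebrates, at 6.41 against 1016. Both were found in under 10% of gated cells, 8.85% and 9.62%, and in 78.9% and 67.9% of barcoded cells. All 3 genes were also low in the other unbarcoded cells, at 18.9, 95.1 and 20.6 CPM.

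The contractile genes of this group were the calcium pump Atp2a3 (22.4 against 2322 CPM), the muscle myosin heavy chain Myh2 (6.18 against 671), the giant sarcomere protein Ttn (53.0 against 4786) and the actins named Actb (89.9 against 9181) and Actg2 (158 against 13388). In the CRISPR libraries 6 of the 8 genes were called lower, at log2 fold changes of -8.84 to -4.67. Of these, the call of Myh2 (edgeR adjusted p = 0.032) was lost with DESeq2 (adjusted p = 0.15). Actb (-4.34 ± 1.67; edgeR adjusted p = 0.072) and Actg2 (-4.28 ± 1.53; adjusted p = 0.059) were not. Actb was at 1.44 and 395 CPM in the gated cells of repeats 1 and 2, and Actg2 at 17.2 and 839, against 3683 to 8057 in barcoded cells, so the repeats differed widely although neither reached the barcoded level. With the repeat as a block the adjusted p of Actg2 was 0.046, and without the largest gated cells it was 0.040 and that of Actb 0.038.

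Of 159 transcription factors compared, 5 were at least 4-fold higher in gated cells (3.145%, against 10.4% of all genes) and 37 at least 4-fold lower (23.3%, against 12.2%), with a median log2 ratio of -0.65 beside -0.50 for all genes. Id.b (KY.Chr7.1157), an inhibitory HLH factor without a DNA-binding domain, was at 2232 CPM in gated, 277 in barcoded and 1734 in other unbarcoded cells. Its neighbour Id.a (KY.Chr7.1153) was at 901, 207 and 980 CPM. Both Id genes were therefore about as high in the other unbarcoded cells as in the gated cells.

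Creb3l1 (KY.Chr2.2188), which in vertebrates is a membrane-bound bZIP factor of secretory cells, was at 407 CPM in gated, 74.0 in barcoded and 224 in other unbarcoded cells. IRF-like-4 (KY.Chr12.1060), of the interferon regulatory factor family, was at 56.9, 11.51 and 26.1 CPM. Foxh.b (KY.Chr14.65), of the Foxh family that works with Nodal signalling in vertebrates, was at 112, 27.8 and 93.1 CPM. The first 4 were called higher in the CRISPR libraries, with log2 fold changes of 2.41 to 3.56. Foxh.b was not, at 8.62 and 11.36 CPM in gated cells against 10.7 and 11.2 in barcoded cells (-0.15 ± 0.28; edgeR adjusted p = 0.68). Over the whole list, 18 of 151 transcription factors tested were called higher and 30 lower, where 22.4% and 17.4% of all genes were called.

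Further genes were grouped by the start of their vertebrate name. Only genes with a name can enter these lists. Of the 4612 named genes compared, 5.14% were at least 4-fold higher and 15.3% at least 4-fold lower. Among matrix genes 13 of 44 compared were at least 4-fold higher (29.5%, against 10.4% of all genes). Another 6 were at least 4-fold lower (13.6%, against 12.2%), and the median log2 ratio was -0.13. Besides Col6a3 and Matn2 these 13 included Matn4 (KY.Chr14.958; 4201 against 437 CPM), Sparc (KY.Chr14.399; 3180 against 736), a collagen-binding matrix protein, and Hmcn1 (KY.Chr13.81; 1017 against 84.7), a hemicentin. The lower ones included fibrillar Col1a1 (KY.Chr7.425; 105 against 1209) and Thbs2 (KY.Chr3.1534; 22.1 against 1643). Against the other unbarcoded cells 5 of 40 matrix genes were at least 4-fold higher and 10 lower, beside 281 and 1036 of all 9308 genes. In the CRISPR libraries 16 of 38 matrix genes were called higher and 6 lower, beside 22.4% and 17.4% of all genes. Of the 13 genes higher in the time series, 12 were among the called ones, and the second Sparc (KY.Chr13.285), at 7.67 CPM, was not tested. Hmcn1, Col6a3, Matn and Sparc each name several copies, and reads shared by near-identical copies could be split between them.

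Enzymes that transfer sugar or sulphate gave 10 of 51 genes at least 4-fold higher (19.6%) and 7 lower (13.7%). All genes gave 10.4% and 12.2%, and the median log2 ratio of the list was -0.19. Against the other unbarcoded cells 1 of 48 was at least 4-fold higher and 7 lower, beside 281 and 1036 of all 9308 genes. Fut7 (KY.Chr1.2235), a fucosyltransferase, was at 1064 against 107 CPM, B4galt1 (KY.Chr7.217), a galactosyltransferase, at 553 against 57.2, and Chst2 (KY.Chr5.604), a carbohydrate sulphotransferase, at 484 against 46.0. Of 47 tested in the CRISPR libraries, 19 were called higher and 5 lower (22.4% and 17.4% of all genes), and all 10 of the time series genes were among those called higher. A second gene named Fut7 (KY.Chr9.155) went the other way, at 5.26 against 105 CPM, and was called lower (-3.40 ± 0.28; edgeR adjusted p = 0.00031).

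Among ligands and secreted antagonists 4 of 21 were at least 4-fold higher (19.05%, against 10.4% of all genes) and 5 lower (23.8%, against 12.2%). The CRISPR test called 8 of 18 higher and 5 lower, beside 22.4% and 17.4% of all genes. Nodal (KY.Chr14.1181), a TGF-beta family ligand, was at 58.0 against 9.45 CPM, Bmp1 (KY.Chr4.1126), a tolloid protease, at 45.8 against 4.83, Chrdl1 (KY.Chr10.1268), a BMP antagonist, at 22.6 against 4.914, and Dkk3 (KY.Chr8.968), of the dickkopf family, at 66.8 against 5.88. All 4 were called higher in the CRISPR libraries, with log2 fold changes of 2.80 to 4.97. Chrdl1 and Dkk3 were higher still in the other unbarcoded cells, at 85.1 and 72.5 CPM. Wnt9a (KY.Chr9.610; 2.75 against 120 CPM), Wnt3 (KY.Chr9.955; 2.40 against 45.2) and Fgf4 (KY.Chr1.1891; 10.19 against 103) were among the lower ligands, and all 3 were called lower in the CRISPR libraries.

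Of 30 receptors 4 were at least 4-fold higher (13.3%) and 5 lower (16.7%), beside 10.4% and 12.2% of all genes, and 7 of 26 were called higher and 6 lower in the CRISPR libraries (22.4% and 17.4% of all genes). Lrp6 (KY.Chr5.780), a Wnt co-receptor, was at 1889 CPM in gated and 180 in barcoded cells. Notch2 (KY.Chr10.1200), at 757 against 73.8, and Notch3 (KY.Chr9.868), at 155 against 28.9, are transmembrane receptors of Delta-type ligands by name, and Ephb2 (KY.Chr1.603), at 92.8 against 19.4, an ephrin receptor. Against the other unbarcoded cells 1 of 28 receptors was at least 4-fold higher and 4 lower, beside 281 and 1036 of all 9308 genes. There Lrp6, Notch2, Notch3 and Ephb2 were at 719, 153, 142 and 73.2 CPM, so Notch3 and Ephb2 were nearly as high as in gated cells. All 4 were called higher in the CRISPR libraries. Lrp6 reached 2371 and 2225 CPM there against 38.4 and 48.8 in barcoded cells (5.63 ± 0.29; edgeR adjusted p = 6.2e-05). Other Notch and Lrp6 genes went the other way. A second Notch3 (KY.Chr5.123) was at 4.24 against 20.1 CPM, Notch1 at 51.7 against 111 and another Lrp6 (KY.Chr4.46) at 24.0 against 56.3. These were called lower in the CRISPR libraries. Notch4, at 0.34 against 22.7 CPM, was not tested there. A further Lrp6 (KY.Chr1.869) was at 2.75 against 2.23 CPM.

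Tmprss11a (KY.Chr7.711), a membrane-anchored serine protease of epithelia in vertebrates, was at 1643 against 147 CPM and was called higher in the CRISPR libraries, at 1607 and 1710 CPM against 41.4 and 30.2. It and Tmprss15 were the higher members among 24 proteases and inhibitors, of which 6 were lower. That is 8.333% higher and 25% lower, beside 10.4% and 12.2% of all genes and 5.14% and 15.3% of named genes. In the CRISPR libraries 6 of 21 were called higher and 5 lower, beside 22.4% and 17.4% of all genes. Among junction and polarity genes Celsr1 (KY.Chr11.398), a planar polarity cadherin, and Cldn19 (KY.Chr11.159), a claudin, were higher and 2 of 15 were lower. That is 13.3% each way, beside 10.4% and 12.2% of all genes and 5.14% and 15.3% of named genes. The CRISPR test called 6 of 14 higher and 3 lower, beside 22.4% and 17.4% of all genes. Membrane transporters gave 18 of 152 at least 4-fold higher (11.8%) and 38 lower (25%). All genes gave 10.4% and 12.2%, and named genes 5.14% and 15.3%. In the CRISPR libraries 34 of 141 transporters were called higher and 35 lower, beside 22.4% and 17.4% of all genes.

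Contractile muscle genes were the list with the lowest median log2 ratio, -5.44. In it 21 of 28 were at least 4-fold lower (75%, against 12.2% of all genes) and 1 was higher. The higher one was Acta1 (KY.Chr8.1375), named after an actin, at 37.4 against 4.70 CPM. Both CRISPR repeats together gave 21 of 28 called lower and 4 higher, beside 17.4% and 22.4% of all genes. Cell cycle genes were the other low list, with 7 of 20 at least 4-fold lower (35%), none higher and a median of -1.60. The 7 were the replication genes Mcm2, Mcm3, Mcm4, Mcm5 and Pcna, the cyclin Ccna1 and the topoisomerase Top2b. Pcna, the sliding clamp of replication, was at 10.4 against 55.4 CPM in the time series and at 10.0 and 22.2 against 94.6 and 87.3 in the CRISPR libraries (-2.39 ± 0.26; edgeR adjusted p = 0.00087). Of 19 cell cycle genes tested there, 11 were called lower and 0 higher (edgeR), beside 17.4% and 22.4% of all genes.

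None of the 70 genes named Rpl or Rps with a digit was past 4-fold in the time series or called in the CRISPR libraries, with medians of -0.31 and -0.16 (edgeR, log2). All but Rps6ka1 and Rps6ka5, which are named after S6 kinases, are ribosomal protein genes by name. Of 47 genes of tubulins and cilia 1 was lower and none higher past 4-fold in the time series (12.2% and 10.4% of all genes). In the CRISPR libraries 8 of 44 were called higher and 4 lower, beside 22.4% and 17.4% of all genes. Tuba1a (KY.Chr1.1281), an alpha tubulin by name, was the one with the highest log2 fold change there (3.71 ± 0.12; edgeR adjusted p = 3.1e-05), and was at 111.8 against 49.1 CPM in the time series. Of genes unnamed in the gene tables read 819 of 5579 were at least 4-fold higher (14.7%), against 237 of 4612 with a name (5.14%). Most of the 1056 genes higher in gated cells were thus unnamed in those tables. The part that the coverage of those tables plays in these shares was not tested.

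The tissue of the gated cells was judged on 9 lists of markers, and the epidermis list was the one that stood above barcoded cells in its sum in all 3 libraries by the widest margin. Its 4 genes summed to 12313 CPM in gated cells, 1076 in barcoded cells, 335 in barcoded cells under 5 gate UMIs and 3626 in other unbarcoded cells. CRISPR repeats 1 and 2 gave sums of 15017 and 12067 CPM in gated cells against 298 and 322 in barcoded cells. A UMI of the list was found in 519 of the 520 gated cells. Epi1 made up most of it, and Celsr1, at 1721 against 198.6 CPM, was also at least 4-fold higher. Ehf (KY.Chr4.609), an ETS factor of epithelia in vertebrates, was at 18.9 against 8.27 CPM and Cdh1 (KY.Chr10.1051), the epithelial cadherin, at 3.55 against 2.06, both under 4-fold. Epi1, Celsr1 and Ehf were called higher in the CRISPR libraries, and Cdh1 was too low to test. Counts in this and the other marker lists stand beside 10.4% of all genes higher and 12.2% lower in the time series. In the CRISPR libraries the shares of all genes were 22.4% and 17.4%.

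**Figure D4:**
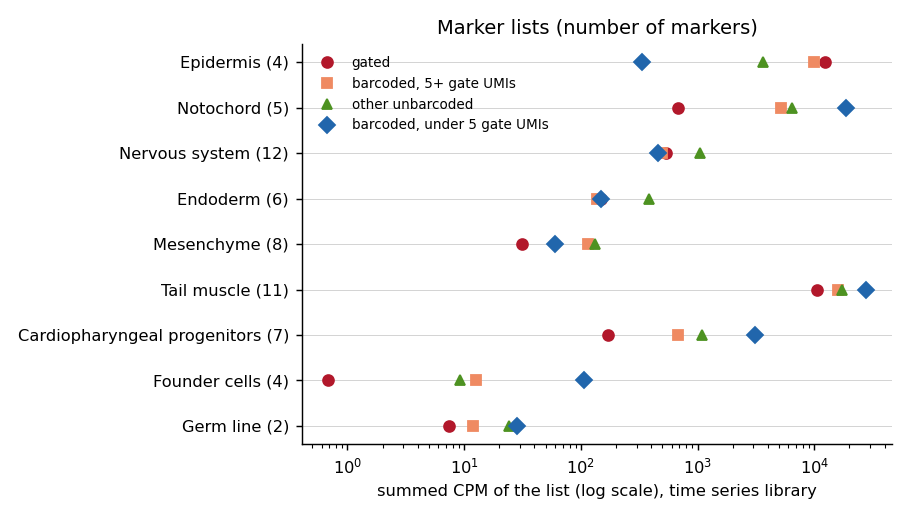
Summed CPM (horizontal axis, log scale) of each marker list (rows, with the number of markers) in gated cells (red circles), barcoded cells with 5 or more gate UMIs (orange squares), other unbarcoded cells (green triangles) and barcoded cells under 5 gate UMIs (blue diamonds) of the time series. The epidermis sum is 12313 CPM in gated and 335 in barcoded cells under 5 gate UMIs, while the cardiopharyngeal and founder sums, 170 and 0.69 in gated cells, run the other way.

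Lists of the B7.5 lineage were low. All 4 founder cell genes (Mesp and 3 Tbx6-r copies) were at or under 3 UMIs over the gated cells, 0.69 CPM in all against 99.4 in barcoded cells. Of 7 cardiopharyngeal markers 6 were at least 4-fold lower: Hand (KY.Chr14.359) had 0 UMIs in gated cells and 28.0 CPM in barcoded cells, at least 81.6-fold lower by the floor of 3 counts, and Gata4/5/6 (KY.Chr6.625) was at 1.03 against 53.6 CPM. Both genes encode regulators of heart formation. Likewise 6 of 7 were called lower in the CRISPR libraries.

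Foxf (KY.Chr3.1005), a forkhead factor that marks the early cardiopharyngeal progenitors, was the exception. It is not a marker of that lineage alone in this study. The paper names trunk epidermal cells with Foxf as an example of the unbarcoded cells that came through its sort. Foxf was at 97.2 CPM in gated cells, 153 in barcoded cells and 52.9 in other unbarcoded cells, and 42.7% of gated cells held a UMI of it. Thinned to 3000 UMIs, 20.1% of gated, 31.5% of barcoded cells under 5 gate UMIs and 14.44% of other unbarcoded cells had one. Its level in gated cells of the CRISPR libraries was 250 and 174 CPM against 137 and 103 (0.72 ± 0.21; edgeR adjusted p = 0.031), short of the log2 fold change of 1 needed for a call. Barcoded cells there include Foxf CRISPR cells.

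Of 11 tail muscle markers 9 were at least 4-fold lower. The sum of the list, 10611 CPM in gated cells, was less far below that of barcoded cells, 26654, than most of its genes, and Actc1 (KY.Chr11.686) alone gave 9898 of it, against 3592 CPM in barcoded cells. That actin was found in every gated cell. Of the 11, 8 were called lower in the CRISPR libraries, and Actc1 and Acta1 were called higher. Actins form a multigene family whose reads may be shared.

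Of 5 notochord markers 3 were at least 4-fold lower and none higher. The list had 682 CPM in gated and 17728 in barcoded cells, nearly all of it caveolin (Cav1, KY.Chr5.1031; 401 against 16125 CPM), and 10 gated cells held 62.1% of its UMIs. The test in the CRISPR libraries called 2 of the 5 lower and called Foxa2 (KY.Chr11.1167), a forkhead gene shared with the endoderm list, higher, at 18.7 and 103 CPM against 8.76 and 3.62.

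The nervous system list had 1 of 12 genes at least 4-fold higher, Foxb1 (KY.Chr4.915), at 37.2 against 3.780 CPM, and 1 lower, Pax2 (KY.Chr6.685), at 9.84 against 49.9. Pax2 lay on the other side in the CRISPR libraries, at 21.5 and 19.9 against 11.68 and 12.2 CPM (0.68 ± 0.21; edgeR adjusted p = 0.038), short of a call. Its sum was 540 CPM in gated, 459 in barcoded and 1041 in other unbarcoded cells. In the CRISPR libraries 5 of 11 were called higher (22.4% of all genes): Foxb1, Celf3, Otx1, Syt10 and Sox2. The call of Sox2 (1.07 ± 0.26; edgeR adjusted p = 0.016) was lost with the repeat as a block (adjusted p = 0.052) and without the largest gated cells (adjusted p = 0.15).

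No endoderm marker passed 4-fold in the time series, with sums of 149 CPM in gated and 148 in barcoded cells, while in the CRISPR libraries 3 of 5 were called higher and 1 lower. Among 8 mesenchyme markers Irx.c (KY.Chr3.1404), an Iroquois homeobox gene, was higher, at 21.1 against 3.44 CPM, 4 were lower and KY.Chr14.191 and KY.Chr10.172 had 0 UMIs in gated cells. In the CRISPR libraries Irx.c was the only one of 4 tested that was called, and it was higher. The germ line list had 1 of 2 lower, Tdrd5 (KY.Chr3.1726), at 2.63 against 10.5 CPM, and its call in the CRISPR libraries (adjusted p = 0.021) was lost with the block (edgeR adjusted p = 0.054). By these lists epidermis is the class whose sum stood furthest above barcoded cells, through Epi1 and Celsr1, with 2 of its 4 markers at low level. The name stays the one of the rule, gated cells.

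Compared with the other unbarcoded cells, far fewer genes stood out on the higher side. Of 9308 genes compared 281 were at least 4-fold higher in gated cells (3.02%) and 1036 at least 4-fold lower. The 5 leading genes were KY.Chr4.889 (256 against 2.65 CPM), KY.Chr1.1754 (305 against 4.31), KY.Chr9.787 (846 against 18.4), KY.Chr3.561 (173 against 3.82) and Vim (3768 against 97.2). All 5 were called higher against barcoded cells in the CRISPR libraries. None of the 58 markers was at least 4-fold higher in gated than in other unbarcoded cells, and Celsr1 came closest in the epidermis list, at 3.89-fold, followed by Epi1 at 3.34-fold. The 5 transcription factors named above were at 0.92 to 2.18 times the level of the other unbarcoded cells.

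Cells with no complete pair and at least 5 UMIs of Matn4 and KY.Chr13.80 overlapped the gated cells broadly. Of the 520 gated cells 445 (85.6%) met that rule, which is 75.4% of the 590 cells that did, and in the CRISPR libraries 21 of 22 and 84 of 94 gated cells met it.

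Gated cells were not uniform. Clustered on their own without the gate genes, they fell into 8 numbered clusters of 35 to 96 cells. The epidermis sum, nearly all of it Epi1, was at 9747 to 14578 CPM in all 8. Other markers of the list varied more, with Celsr1 from 469.7 CPM in cluster 7 to 2807 in cluster 6 and Ehf from 0 in cluster 7 to 40.5 in cluster 4. The gate genes also differed: KY.Chr7.533 was at 31586 CPM in cluster 6 (65 cells) and at 479 in cluster 7 (35 cells), where 51.4% of cells held it and every cell held KY.Chr10.630. KY.Chr3.262 was at 4271 CPM in cluster 5 (50 cells), where 56.0% of cells held it, and at 32.3 to 1197 in the other 7.

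Some leading genes followed the same division. Col6a3 was at 20089 CPM in cluster 6 and 1670 in cluster 7. Vim was at 6183 and 8024 CPM in these clusters, and at 1271 to 9058 over all 8, so it did not follow KY.Chr7.533. Id.b was at 5476 CPM in cluster 7 and 479 in cluster 6. The nervous system sum ran from 206 CPM in cluster 6 to 803 in cluster 3. Otx1 was at 170 and 214 CPM in clusters 3 and 4, and at 3.07 to 37.3 in the others. Celf3 was at 371, 201 and 252 CPM in clusters 1, 3 and 4, and at 8.97 to 79.8 in the others. Pax5, of the same list, varied less, from 29.9 to 95.2 CPM.

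Cluster 5, the one with most KY.Chr3.262, also had the highest notochord sum, 3369 CPM, and tail muscle sum, 14443 CPM, and its leading genes over other gated cells were actins, myosin light chains, troponin and tropomyosin. These leading genes define the cluster and are no result. In it the actin Actg2 (KY.Chr4.230) was at 1377 CPM, against 45.5 to 65.2 CPM in the other clusters. The share of cells with a UMI of it was 50% there and 28.6% to 63.8% in the others. Cluster 3 (80 cells) came next in the notochord list, at 1167 CPM, and was highest in cardiopharyngeal markers, at 306 CPM. The origin of these genes in clusters 3 and 5 was not tested.

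**Figure D5:**
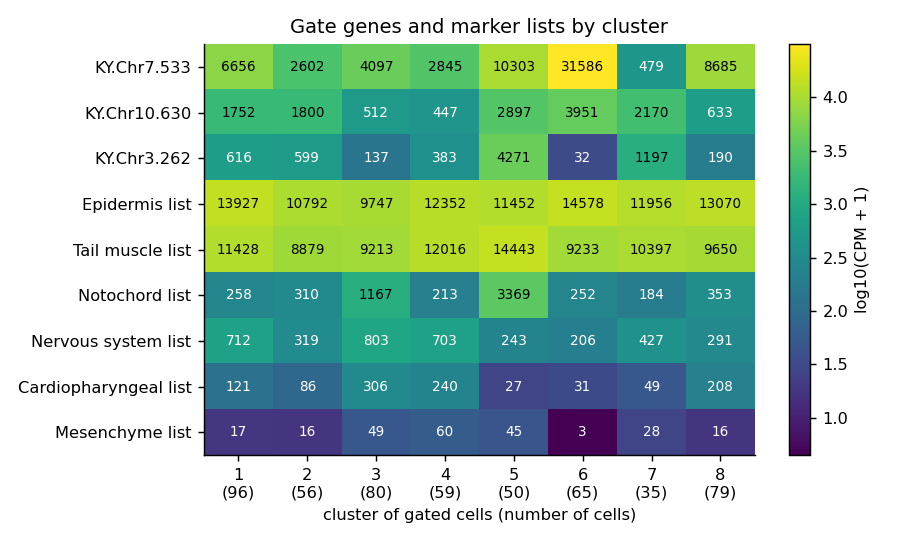
CPM of the gate genes and of marker lists (rows) in the 8 clusters of gated cells (columns, with the number of cells); colour gives log10(CPM + 1) and the figures printed in the fields are CPM. The epidermis row varies from 9747 to 14578 CPM, while KY.Chr7.533 varies from 479 to 31586 and KY.Chr3.262 from 32.3 to 4271.

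When all 2517 cells were clustered together, 21 clusters formed and 4 of them consisted of gated cells by more than 50%. These 4 held 419 of the gated cells (80.6%), 72 of the 105 barcoded cells with 5 or more gate UMIs, 76 other unbarcoded cells and 22 barcoded cells under 5 gate UMIs. A further cluster of 187 cells held 67 gated cells beside 89 other unbarcoded cells, with Epi1 at 9695 CPM. The rest of the gated cells were scattered over 7 clusters with 1 to 17 gated cells each.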

How the data were processed

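Droplet single-cell RNA-seq of sorted Ciona robusta cells was analysed in 3 libraries. The deposited counts are whole UMIs per gene and cell, made by the authors with Cell Ranger 3.0.1 against the Ciona genome with the sample barcodes added as artificial genes; further settings are not given in the sources used here. In the time series, cells between the 1st and 99th percentile of detected genes (432 to 6060) were kept, 2517 of 2569 (40785980 UMIs deposited), as were all 231 and 638 CRISPR cells (5382449 and 15156285 UMIs). The 17822 genes do not include the 21 sample barcodes. A barcoded cell had at least 1 UMI of both barcodes of a pair. Pairs were taken from the counts, as barcodes each most correlated with the other over cells. There were 10 pairs in the time series, with correlations of 0.323 to 0.994, and 4 in the CRISPR libraries. The lowest correlation was that of SBC000 and SBC007, and the next was 0.911. No doublet caller was run, and barcoded cells with several pairs were kept.

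UMIs were summed over cells. Time series sums (1 library) were compared as ratios of CPM with conditional binomial intervals, called past 4-fold with at least 50 UMIs over both sums. CRISPR sums were fitted in edgeR 4.0.16 (R 4.3.3; TMM, filterByExpr, glmQLFit, glmQLFTest), with calls at an adjusted p under 0.05 and a log2 fold change beyond 1 in either direction. Alternatives included DESeq2 1.42.0, other gates, other references and a block for the repeat. Both sums of a repeat come from 1 library, which is where the pairing comes from. Their deviations from the mean of their class correlated at -0.055. With only 1 other repeat, the value against it, 0.055, is fixed as the mirror image and is no separate check. Clusters were Leiden clusters (scanpy 1.11.5) on 2000 variable genes, with 20 components and resolution 0.5 for gated cells, and 30 and 1 for all cells. The comparisons, but not the clustering, were also run on simulated data. The counts simulated for edgeR had 1 fixed dispersion and far fewer changed genes than were called here. That run therefore does not show how the fit behaves on these sums.

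Named genes were the 15 with the highest lower bound of the ratio to barcoded cells (at least 200 UMIs, found in 50% of gated cells), the next 10 by CPM with a lower bound of at least 4, the 8 lowest by the upper bound, the 5 leading transcription factors, the 5 leading over other unbarcoded cells, and all 58 markers. Of the first group 1 gene is not reported here. The members and lists were chosen with earlier results of these data known. Every result of each of the 12 name lists is a count, without a set test.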

Additional observations from a re-analysis of the deposited data

Results flagged for a closer look

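The ratio of CPM, gated over barcoded cells, lay on opposite sides of 1 in the time series and in both CRISPR repeats for 7 markers, and the difference was not tested. In 3 of them the counting intervals of all 3 ratios excluded 1. It was 0.613 in the time series and 4.66 and 16.7 in repeats 1 and 2 for the alkaline phosphatase gene Alpl (KY.Chr6.211), an endoderm marker. It was 0 and then 11.8 and 2.73 for the mesenchyme marker KY.Chr14.191, which had 0 UMIs in the gated cells of the time series. It was 0.636 and then 1.83 and 1.69 for Foxf (Foxf1, KY.Chr3.1005).

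In the other 4 at least 1 of the intervals included 1. The ratios were 0.197 and then 1.84 and 1.62 for Pax2 (KY.Chr6.685), and 0.893 and then 2.53 and 2.08 for Sox2 (KY.Chr1.559). They were 1.08 and then 0 and 0.881 for the synaptotagmin gene Syt9 (KY.Chr1.1199), and 0.122 and then 1.89 and 1.11 for Twist1 (KY.Chr5.357). The CRISPR libraries differ from the time series in age and in the perturbations that barcoded cells carry, and these cannot be told apart here.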

How the results depend on the processing

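The number of gated cells depended on the rule: 571 cells at 3 or more gate UMIs, 457 at 10 or more, 117 without any sample barcode UMI, 397 without KY.Chr7.533 and 437 without KY.Chr10.630 in the gate, against 514 without KY.Chr3.262. With no minimum on UMIs, 2159 genes were at least 4-fold higher and 2757 lower than in barcoded cells, and 1132 higher and 2604 lower than in other unbarcoded cells. With a gate of at least 10 UMIs, 187 genes were higher than in other unbarcoded cells. The other 53 recomputed counts of cells or genes stayed within 1.5 times, and none of the named genes called in the CRISPR libraries changed its direction. Foxh.b, which was not called, went from -0.15 to 0.0013 on the log2 scale without the largest gated cells, and Pax5 (KY.Chr12.443) from -0.0017 to 0.014.

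In the CRISPR libraries the fit with the repeat as a block called 1896 genes higher and 1435 lower. Beside the calls of Sox2, Tdrd5 and Actg2 given above, the adjusted p of Pax2 (0.094) and Piwil4 (0.086) passed 0.05 with the block, both with a log2 fold change within 1, and the block changed no other call of a named gene. Leaving out each repeat left 1 repeat and no test; past 2-fold, 2310 to 2399 genes were higher and 1545 to 1865 lower. DESeq2 called 2026 higher and 1570 lower, and among named genes it lost Myh2 and added Actg2 (adjusted p = 0.042). The comparison with barcoded cells under 5 gate UMIs in the CRISPR libraries, that with other unbarcoded cells holding at most 1 gate UMI, that with barcoded cells of at least 10 sample barcode UMIs, and the fits without the largest cells or shared cell barcodes were chosen after seeing the data.

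Each time series class is 1 library without replicates, both CRISPR repeats hold few gated cells (22 in repeat 1), and genes at a few UMIs there, such as Cdh1 with 2 and 12 in gated cells, were too low to test.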
